A study of Rattus norvegicus with 18 samples.

Results

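FoxO transcription factors, the ubiquitin ligases of muscle atrophy and myostatin were followed through gastrocnemius RNA of male Brown Norway rats by 5 genes, Foxo1, Foxo3, Fbxo32, Trim63 and Mstn. They were chosen by their Ensembl identifiers and chromosomes among the 32883 genes of the count table, by a rule that used no measured value, although earlier results of these data were known when it was made. Muscle came from 6 young rats fed AL (ad libitum) and killed at 6 months, 6 aged rats fed AL and killed at 28 months, and 6 aged CR (caloric restriction) rats, also killed at 28 months, whose daily food was held to 55% of AL intake from 2 months of age. The rats carried no transgene or other allele named in the labels, which list 18 separately numbered rats. The comparisons ask what differs with age under AL feeding, what differs between aged CR and young rats, and what differs with diet at the same age.

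FoxO proteins are transcription factors that insulin and IGF signalling keeps out of the nucleus through Akt, and that raise genes of protein breakdown when that signalling falls. Fbxo32 encodes atrogin-1, the F-box subunit that brings substrates to an SCF ubiquitin ligase, and Trim63 encodes MuRF1, a RING-type ubiquitin ligase of the sarcomere. Both are widely used markers of muscle atrophy and are known targets of FoxO factors. Mstn encodes myostatin, a TGF-β family protein that muscle secretes and that limits muscle growth.

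In these libraries the members did not move as 1 block. Foxo1 was 2.56-fold lower in aged than in young rats fed AL, and Mstn was 2.39-fold higher under CR than under AL feeding at 28 months, and both differences passed the test across all genes. In the edgeR fit with TMM scaling over all 18 libraries, neither ligase gene passed in any of the 3 comparisons. Foxo3 also passed in none, with its lowest mean level in aged rats fed AL.

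On Rnor_6.0, the assembly of the counts, Foxo1 (ENSRNOG00000013397) lies on chr2:141451234-141527016 on the forward strand, with 2560 exonic bases. Foxo3 (ENSRNOG00000000299) lies on chr20:46428124-46519144 on the forward strand, with 2880 exonic bases. Fbxo32 (ENSRNOG00000006738) lies on chr7:98063735-98098268 on the reverse strand, with 3179 exonic bases. Trim63 (ENSRNOG00000016543) lies on chr5:152533349-152547179 on the forward strand, with 1896 exonic bases. Mstn (ENSRNOG00000021294) lies on chr9:53309598-53315915 on the reverse strand, with 2621 exonic bases. The counting named no strand option, so an overlapping antisense gene would share reads, but 0 other genes of the table overlap any of the 5.

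Promoter sequence was at hand for 2 of the 5 members, Foxo1 and Trim63, from RefSeq on GRCr8, another assembly than that of the counts. It is shown because Foxo1 is the FoxO gene whose level differed with age and Trim63 is a known FoxO target. The Foxo1 stretch is the 250 bases before the gene's start at chr2:138462724-138462973, forward strand. The Trim63 stretch is the 223 bases at chr5:151816986-151817208, forward strand, cut where the gene's outermost annotated start begins. Capitals mark the only match found in these stretches to 2 motifs searched on both strands, the FoxO binding motif GTAAACA and the insulin response element core CAAAACA.

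Foxo1: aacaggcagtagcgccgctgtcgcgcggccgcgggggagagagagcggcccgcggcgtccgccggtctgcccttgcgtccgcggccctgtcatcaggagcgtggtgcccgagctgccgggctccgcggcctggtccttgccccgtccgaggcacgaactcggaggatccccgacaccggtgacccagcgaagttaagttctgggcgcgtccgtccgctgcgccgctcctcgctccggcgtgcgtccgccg

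Trim63: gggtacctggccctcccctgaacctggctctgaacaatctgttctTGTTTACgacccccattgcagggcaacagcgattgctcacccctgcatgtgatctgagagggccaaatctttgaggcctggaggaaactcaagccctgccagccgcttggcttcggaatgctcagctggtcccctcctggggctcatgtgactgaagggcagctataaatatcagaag

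In Trim63 the match reads TGTTTAC, the reverse complement of GTAAACA, 205 to 199 bases before the start used by the promoter table. Of 33469 rat promoter windows of 300 bases, 3.78% held GTAAACA on either strand and 6.28% held CAAAACA. The Foxo1 window held neither, which says only that these letters are not in it. G and C made up 74.4% of the Foxo1 stretch, against a median of 51.2% over all promoters, and 56.1% of the Trim63 stretch.

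Library totals were 19940496 to 24474703 counts for young AL, 17335401 to 23351719 for aged AL and 20174316 to 27432767 for aged CR rats. On the first principal component of log2 CPM (counts scaled to library size), rat 8 (aged, AL) lay at 108.9 and library 8828 (aged, CR) at 75.5, with no other library above 8.25. Rat 8 also had the largest TMM scaling factor of the 18 libraries, 1.44, which lowers all its CPM values. Rat 7 (aged, AL) also stood apart from rats 9 to 12, with a chi-square per gene of 183.8 to 280.4, against 17.5 to 65.9 among those rats. Pairs of aged CR libraries ran from 21.5 to 281.6. For 3 aged CR libraries the column name fits no single rat, so they are called by library number, 8826, 8827 and 8828. Sample number 15 heads 2 columns and 18 heads none, so that 6 different aged CR rats were sequenced rests on the labels and on the library numbers, which differ. Library numbers form a separate block in each group, so if each block was processed on its own, its processing and its group cannot be told apart. The identifiers come without symbols, so markers of muscle and of other tissues were not analysed here. In bulk muscle, fewer cells of a type and less RNA per cell cannot be told apart.

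All 5 members passed the filter on low counts, which left 14646 genes, with 149 to 1158 counts per library for Foxo1 and 3231 to 14448 for Trim63. Per kilobase of exon, Trim63 was the most abundant, at a mean of 215 RPKM (CPM per kilobase of exon) over the 18 libraries, higher than 97.9% of tested genes. Fbxo32 followed at 79.8 RPKM. Mstn, Foxo3 and Foxo1 had mean levels of 13.9, 11.1 and 8.73 RPKM. In young rats fed AL these last 3 lay within their spread of each other, at 13.7 ± 3.52 (SD, n = 6) RPKM for Mstn, 12.4 ± 2.17 (SD, n = 6) for Foxo3 and 12.5 ± 5.19 (SD, n = 6) for Foxo1. In aged CR rats the levels were 19.7 ± 5.13 (SD, n = 6) RPKM for Mstn, 12.7 ± 2.09 (SD, n = 6) for Foxo3 and 8.87 ± 2.57 (SD, n = 6) for Foxo1.

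**Figure D1:**
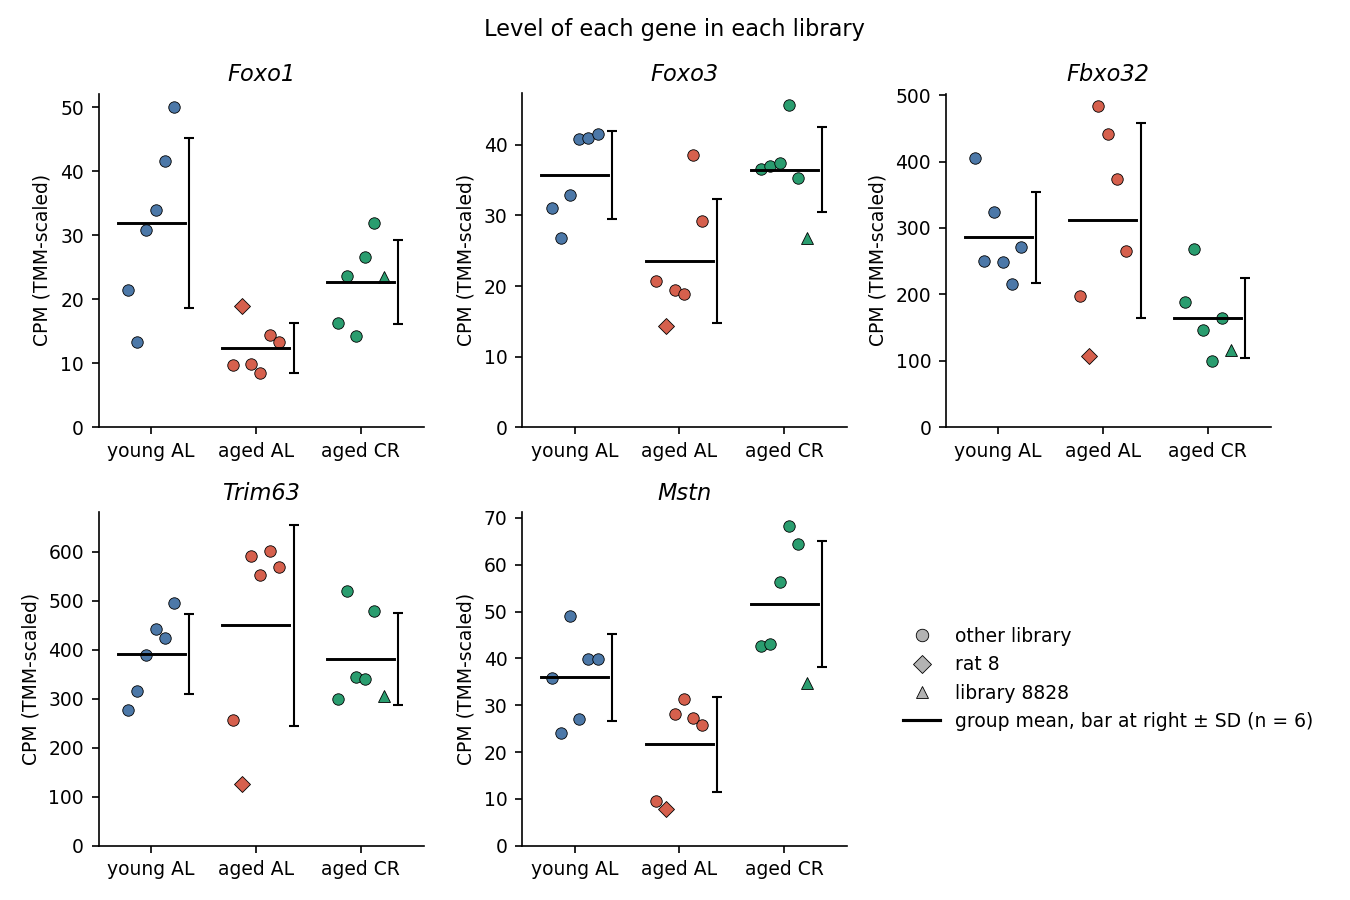
Level of each gene in each library, in TMM-scaled CPM (vertical axis from 0), by group. Bars give the group mean and SD (n = 6), the diamond is rat 8 and the triangle library 8828. Foxo1 is lowest in aged rats fed AL, and all 6 aged CR libraries lie above all 6 aged AL libraries for Mstn.

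Foxo1 levels in young rats fed AL ran from 13.4 CPM in rat 2 to 50.1 CPM in rat 6, with a median of 32.4 CPM. Levels in the aged AL group ran from 8.42 CPM in rat 10 to 18.9 CPM in rat 8, with a median of 11.5 CPM. Under CR they ran from 14.2 CPM in rat 15 to 32.01 CPM in library 8827, with a median of 23.6 CPM. Of the aged rats fed AL, 4 of 6 were below every young rat, and 4 of 6 aged CR libraries exceeded the whole aged AL group, but the groups overlapped in each comparison. Means were 31.9 ± 13.3 (SD, n = 6), 12.4 ± 3.90 (SD, n = 6) and 22.7 ± 6.58 (SD, n = 6) CPM in young AL, aged AL and aged CR rats.

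Between aged and young rats fed AL, the log2 fold change of Foxo1 was -1.36 (SE 0.28, 95% interval -1.95 to -0.77), with an adjusted p of 0.0114 by the quasi-likelihood test of edgeR (Benjamini-Hochberg, over all genes tested). Foxo1 was the 1 member of 5 that passed there, where 4.33% of tested genes did, and 0 of 5 members had groups that did not overlap, against 2.40% of genes. Foxo1 also met the fold change of 1.5 that a call requires beside the adjusted p, and 3.39% of genes met both limits. Its adjusted p stayed at or below 0.0453 when any 1 of the 18 libraries was left out or the test, scaling or filter was changed, and without rat 8 and library 8828 together the log2 fold change was -1.52 with an adjusted p of 0.00518 (edgeR).

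The mean Foxo1 level of aged CR rats lay between those of the other groups. Against aged rats fed AL the log2 fold change was 0.87 (SE 0.28, 95% interval 0.28 to 1.45), which did not pass over all genes in edgeR (adjusted p = 0.120). Against young rats it was -0.49 (95% interval -1.07 to 0.08, edgeR adjusted p = 0.339), and from -0.65 to -0.32 with 1 library left out, the smallest of these without young rat 6. The comparison with aged rats fed AL passed in edgeR when rat 8, the aged AL rat with the highest Foxo1, was left out (log2 fold change 1.03, adjusted p = 0.0460), but not without rat 8 and library 8828 together (1.02, edgeR adjusted p = 0.0552). With no aged library left out, it passed in DESeq2 on only the aged groups (0.87, DESeq2 adjusted p = 0.0153). In DESeq2 on all libraries it did not (0.87, DESeq2 adjusted p = 0.0510).

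Foxo3, the other FoxO member, had the smallest within-group spread of the 5. In young rats fed AL it ran from 26.9 CPM in rat 2 to 41.5 CPM in rat 6, with a median of 36.9 CPM. The aged AL group ran from 14.3 CPM in rat 8 to 38.5 CPM in rat 11, with a median of 20.1 CPM. Under CR it ran from 26.8 CPM in library 8828 to 45.7 CPM in library 8826, with a median of 36.8 CPM. Of the aged AL rats 4 of 6 were below every young rat, while rats 11 and 12, at 38.5 and 29.2 CPM, were within the range of both other groups. Means were 35.7 ± 6.26 (SD, n = 6), 23.5 ± 8.82 (SD, n = 6) and 36.5 ± 6.03 (SD, n = 6) CPM in young AL, aged AL and aged CR rats.

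Foxo3 had a log2 fold change of -0.60 (SE 0.20, 95% interval -1.01 to -0.19) between aged and young rats fed AL, with an unadjusted p of 0.00642 and an adjusted p of 0.0822 in edgeR. It was 0.63 (SE 0.20, 95% interval 0.22 to 1.04, edgeR adjusted p = 0.105) between the aged CR and aged AL groups. Both comparisons share the aged AL libraries, and both passed when rat 11 was left out, with edgeR adjusted p-values of 0.0129 and 0.0239. Without rat 8, which had the lowest Foxo3 CPM of the aged AL libraries, they were -0.49 (edgeR adjusted p = 0.122) and 0.53 (edgeR adjusted p = 0.104). Without rats 7 and 8 they were -0.42 (edgeR adjusted p = 0.203) and 0.46 (edgeR adjusted p = 0.177). Between aged CR and young rats the value was 0.030 (95% interval -0.38 to 0.44, edgeR adjusted p = 0.954).

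**Figure D2:**
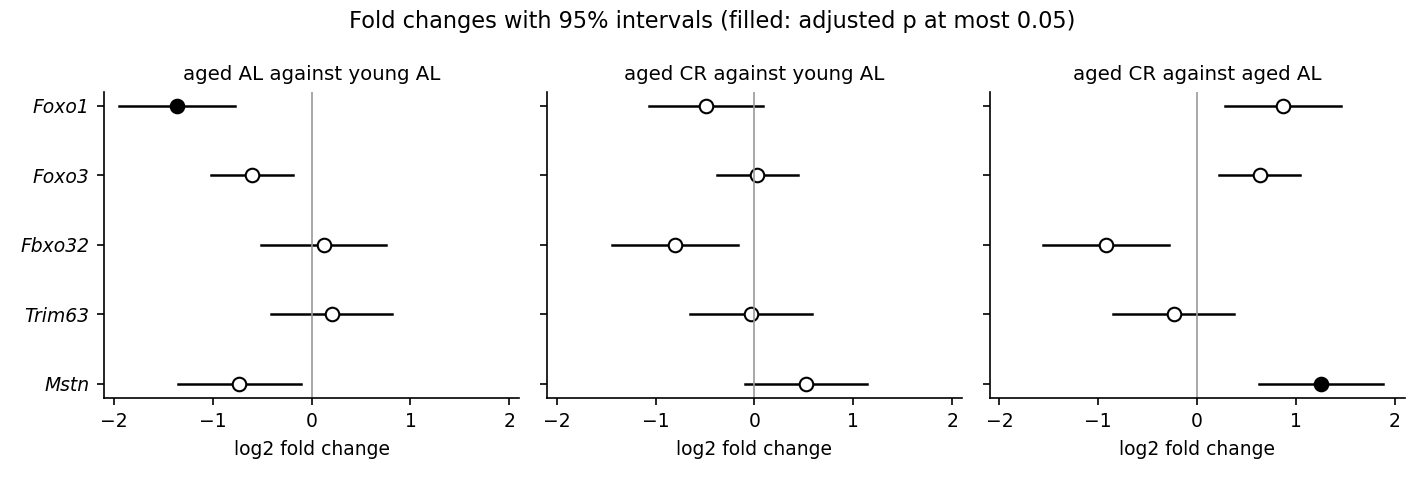
Log2 fold change (horizontal axis) of each gene in the 3 comparisons, with 95% intervals from the edgeR fit over all 18 libraries. Filled points passed at an adjusted p of at most 0.05, which only Foxo1 (aged AL against young AL, -1.36) and Mstn (aged CR against aged AL, 1.25) did.

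Of the ligase genes, Fbxo32 was lowest in aged CR rats. In young rats fed AL it ran from 215.5 CPM in rat 5 to 405 CPM in rat 1, with a median of 261 CPM. With age under AL feeding it ran from 107 CPM in rat 8 to 483 CPM in rat 9, with a median of 319.6 CPM. Under CR it ran from 100.1 CPM in library 8826 to 269 CPM in rat 14, with a median of 156 CPM. Of the aged CR libraries, 5 of 6 lay below every young rat, whereas 1 of 6 lay below every aged rat fed AL, the lowest of which was rat 8. Means were 286 ± 68.5 (SD, n = 6), 311 ± 147 (SD, n = 6) and 164 ± 60.4 (SD, n = 6) CPM in young AL, aged AL and aged CR rats.

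The log2 fold change of Fbxo32 was -0.92 (SE 0.30, 95% interval -1.56 to -0.29) between the aged CR and aged AL groups, with an unadjusted p of 0.00696 and an adjusted p of 0.131 in edgeR. Against young rats it was -0.80 (SE 0.30, 95% interval -1.44 to -0.16, edgeR adjusted p = 0.159). Without rat 8 and library 8828 the difference between the aged groups was -1.02 and passed (edgeR adjusted p = 0.0305). With all 18 libraries it passed in DESeq2 (DESeq2 adjusted p = 0.0497) and with library totals in place of TMM (edgeR adjusted p = 0.0336). The call therefore depended on the libraries, the test and the scaling. Between aged and young rats fed AL it was 0.12 (95% interval -0.51 to 0.76, edgeR adjusted p = 0.851), and 0.30 without rat 8 (edgeR adjusted p = 0.521).

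Trim63 had means of 390.5 ± 81.3 (SD, n = 6), 449.6 ± 204.9 (SD, n = 6) and 381 ± 93.9 (SD, n = 6) CPM in young AL, aged AL and aged CR rats, with the widest spread in the aged AL group. In young rats fed AL it ran from 278 CPM in rat 1 to 495 CPM in rat 6, with a median of 407 CPM. Aged AL rats ran from 126 CPM in rat 8 to 601 CPM in rat 11, with a median of 561 CPM. Under CR it ran from 299.98 CPM in rat 13 to 519.5 CPM in rat 14, with a median of 342 CPM. The aged rats fed AL split to either side of the young rats, with 4 above all of them and rats 7 and 8 below all of them.

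Log2 fold changes of Trim63 were 0.20 (95% interval -0.41 to 0.82, edgeR adjusted p = 0.731) between aged and young rats fed AL and -0.035 (95% interval -0.65 to 0.58, edgeR adjusted p = 0.966) between aged CR and young rats. With diet at 28 months the value was -0.24 (95% interval -0.85 to 0.38, edgeR adjusted p = 0.755). The 3 intervals together run from -0.85 to 0.82, so like levels in the groups were not shown. Without rat 8 the first and last of these values were 0.40 (edgeR adjusted p = 0.286) and -0.43 (edgeR adjusted p = 0.253). Without rat 11 they were 0.10 and -0.14, and without rat 9 they were 0.11 and -0.14. Without rats 7 and 8, a choice made after their values had been seen, they were 0.57 (edgeR adjusted p = 0.0529) and -0.60 (edgeR adjusted p = 0.0567).

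Mstn was the one member whose levels in aged CR rats did not overlap with those in aged rats fed AL. In young rats fed AL it ran from 24.0 CPM in rat 2 to 49.1 CPM in rat 3, with a median of 37.8 CPM. Aged AL rats ran from 7.87 CPM in rat 8 to 31.3 CPM in rat 10, with a median of 26.5 CPM. Under CR it ran from 34.8 CPM in library 8828 to 68.2 CPM in library 8826, with a median of 49.7 CPM. Rats 7 and 8, at 9.61 and 7.87 CPM, were far below the other aged rats fed AL, and were also the lowest of that group for Fbxo32 and Trim63.

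Between the aged CR and aged AL groups the log2 fold change of Mstn was 1.25 (SE 0.30, 95% interval 0.63 to 1.88), with an adjusted p of 0.0356 in edgeR. Its fold change was also at least 1.5, so Mstn was called, as were 1.38% of genes on both limits. Mstn was the 1 member of 5 to pass, where 1.85% of tested genes did, and the 1 member whose groups did not overlap, where the same held for 2.06% of tested genes. Without rat 8 and library 8828 the value was 1.17 (edgeR adjusted p = 0.0153). Fitted on only the aged groups it was 1.26 and did not pass (edgeR adjusted p = 0.0802). The call was lost in 6 of the 18 fits that left out 1 library, those without rat 6 (young), 7 or 12 (aged, AL), 15 or library 8826 or 8827 (aged, CR), with log2 fold changes from 1.10 to 1.30 and edgeR adjusted p-values up to 0.0988.

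Mstn in aged rats fed AL was also below the mean of young rats, at 21.6 ± 10.2 (SD, n = 6) against 35.9 ± 9.23 (SD, n = 6) CPM. That difference did not pass, with a log2 fold change of -0.73 (SE 0.30, 95% interval -1.35 to -0.11) and an edgeR adjusted p of 0.154. It was -0.56 without rat 8 (edgeR adjusted p = 0.210) and -0.35 without rats 7 and 8 (edgeR adjusted p = 0.303). Aged CR rats, at 51.6 ± 13.4 (SD, n = 6) CPM, differed from young rats by 0.52 (95% interval -0.09 to 1.14, edgeR adjusted p = 0.343), and 3 of the 6 were above every young rat.

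Counted by comparison, 0 of 5 members passed between aged CR and young rats in edgeR, against 2.70% of tested genes, and 0 of 5 were called, against 1.98%. Groups overlapped for all 5 there, where they did not for 3.26% of genes, and Fbxo32 alone had an unadjusted p under 0.05, as did 19.3% of genes. Between aged and young rats fed AL 3 of 5 members had such a p, against 22.3% of tested genes, and between the aged groups 4 of 5 did, against 15.3%. The median size of the log2 fold change over the 5 members was 0.60, 0.49 and 0.87 in the comparisons of aged AL with young AL, aged CR with young AL and aged CR with aged AL. Over all tested genes it was 0.21, 0.20 and 0.18. Members also varied more between rats of 1 group than most genes, with SDs of log2 CPM from 0.36 for Foxo3 to 0.60 for Trim63, against a median of 0.25 over the 8214 genes with a mean of at least 10 CPM.

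Ratios of 2 genes within a library do not depend on how libraries are scaled, and ask whether genes of the same role changed unequally. Per kilobase, the Foxo1 to Foxo3 ratio ran from 0.561 to 1.36 in young rats fed AL, with a median of 0.995. Aged AL rats ran from 0.421 to 1.48 with a median of 0.521, and aged CR rats from 0.426 to 1.021 with a median of 0.686. Rat 8, at 1.48, was the highest of all 18 libraries, and the other 5 aged rats fed AL lay between 0.421 and 0.569. The difference between aged and young rats fed AL was -0.63 on the log2 scale, with a two-sided exact permutation p of 0.0801 and an adjusted p of 0.160 over 6 ratio tests. Without rat 8 it was -0.89, with an adjusted p of 0.0390 by the same exact permutation test.

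For the Fbxo32 to Trim63 ratio, atrogin-1 over MuRF1, values ran from 0.303 to 0.870 in young rats fed AL, with a median of 0.399. Aged AL rats ran from 0.278 to 0.507 with a median of 0.467, and aged CR rats from 0.176 to 0.375 with a median of 0.240. In aged CR rats 4 of 6 libraries were below every rat of the aged AL group, and likewise of the young group. The log2 difference was -0.76 against aged rats fed AL (exact permutation p = 0.0108) and -0.81 against young rats (exact permutation p = 0.0173), each with an adjusted p of 0.0519 over the 6 tests, just above the threshold. The difference from aged AL rats passed that exact permutation test when rat 8 (adjusted p = 0.0390), rat 12 (0.0390) or rat 13 (0.0260) was left out, and the difference from young rats when rat 5 (0.0455) or rat 13 (0.0260) was. Without rat 8 and library 8828 together neither passed (adjusted p = 0.0794 for both, exact permutation). Rats 7 and 8, low for both ligase genes, had ratios of 0.457 and 0.507, and that of rat 8 was the highest of the aged AL group.

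**Figure D3:**
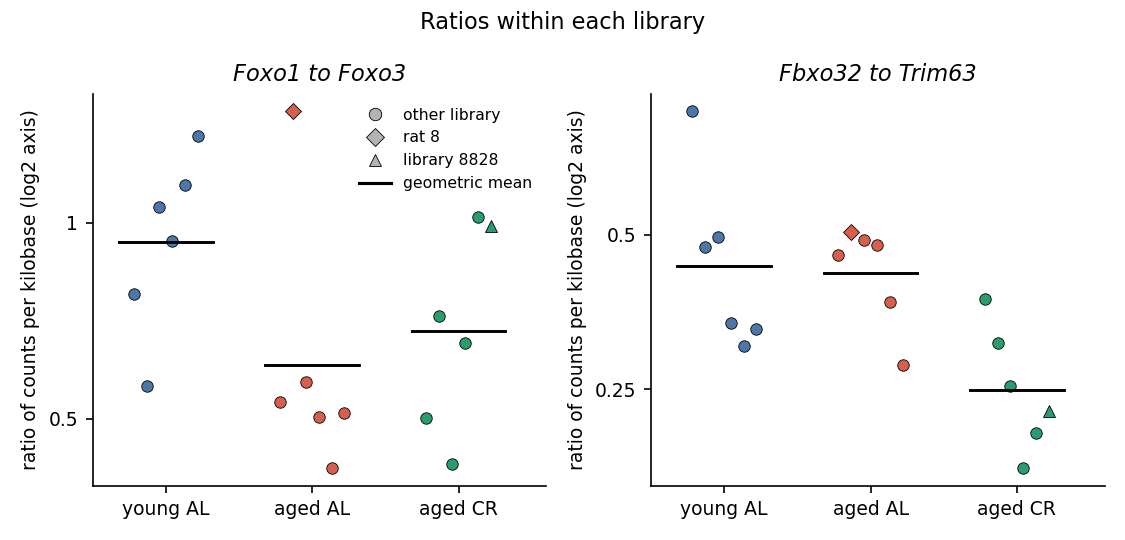
Ratio of counts per kilobase within each library (vertical axis, log2 scale), Foxo1 to Foxo3 on the left and Fbxo32 to Trim63 on the right. Lines are geometric means, the diamond is rat 8 and the triangle library 8828. Rat 8 stands alone at 1.48 for Foxo1 to Foxo3, and aged CR libraries reach down to 0.176 for Fbxo32 to Trim63.

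Across all 10 ratios that the 5 members allow, read after their values were seen and with no test, 3 did not overlap between the aged CR and aged AL groups, and all 10 overlapped in each of the other comparisons. Over all pairs of tested genes the share that did not overlap was 1.93% between the aged groups, 2.78% between aged and young rats fed AL and 3.40% between aged CR and young rats. The ratios share genes, and 2 of the 3 contain Mstn, which did not overlap on its own. Fbxo32 to Mstn lay between 1.21 and 5.15 in aged CR rats and between 8.52 and 16.9 in aged rats fed AL. Trim63 to Mstn lay between 6.88 and 16.7 in aged CR rats and between 22.1 and 36.9 in aged rats fed AL. Foxo3 to Fbxo32 lay between 0.152 and 0.504 in aged CR rats and between 0.0444 and 0.148 in aged rats fed AL.

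Whether members varied together among rats of the same age and diet was asked for 10 pairs in each of the 3 groups, 30 relations in all. In young rats fed AL, Foxo1 and Foxo3 ranked the 6 rats identically, with a Pearson r of 0.942 of log2 CPM (exact permutation p = 0.00139, adjusted p = 0.0417) and a Spearman rho of 1.0 (exact permutation p = 0.00278, adjusted p = 0.0833). Without rats 2 and 6, the farthest from the median, r was 0.866. It was the 1 relation of 30 with an adjusted p of at most 0.05 for r, and 0 of 30 had one with RLE scaling or library totals in place of TMM. In aged rats fed AL the same pair had an r of 0.054 (exact permutation p = 0.875, adjusted p = 0.938) and a rho of 0.086 (exact permutation p = 0.919, adjusted p = 0.951). Without rat 8 r was 0.962 over the 5 other rats (exact permutation p = 0.0167, adjusted p = 0.175), and in aged CR rats it was -0.011 (exact permutation p = 0.976, adjusted p = 0.985), or 0.164 without library 8828 (exact permutation p = 0.883, adjusted p = 0.975). The difference in r between groups was not tested.

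In aged rats fed AL, Fbxo32 and Mstn had an r of 0.924 (exact permutation p = 0.00417, adjusted p = 0.0625) and a rho of 0.943 (exact permutation p = 0.0167, adjusted p = 0.250). Trim63 and Mstn had an r of 0.959 (exact permutation p = 0.0264, adjusted p = 0.146) and a rho of 0.60 (exact permutation p = 0.242, adjusted p = 0.762). Without rat 8 alone these became 0.849 (exact permutation p = 0.0250, adjusted p = 0.175) and 0.978 (exact permutation p = 0.158, adjusted p = 0.572). Without rats 7 and 8 they became 0.733 and -0.520, so the relation of Trim63 and Mstn rests on those rats. Among aged CR rats r was -0.288 for Fbxo32 and Mstn (exact permutation p = 0.575, adjusted p = 0.730) and 0.264 for Trim63 and Mstn (exact permutation p = 0.554, adjusted p = 0.730), and the difference between groups was not tested. Without library 8828, over 5 libraries, these were -0.829 (exact permutation p = 0.0583, adjusted p = 0.292) and -0.021 (exact permutation p = 0.958, adjusted p = 0.975).

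**Figure D4:**
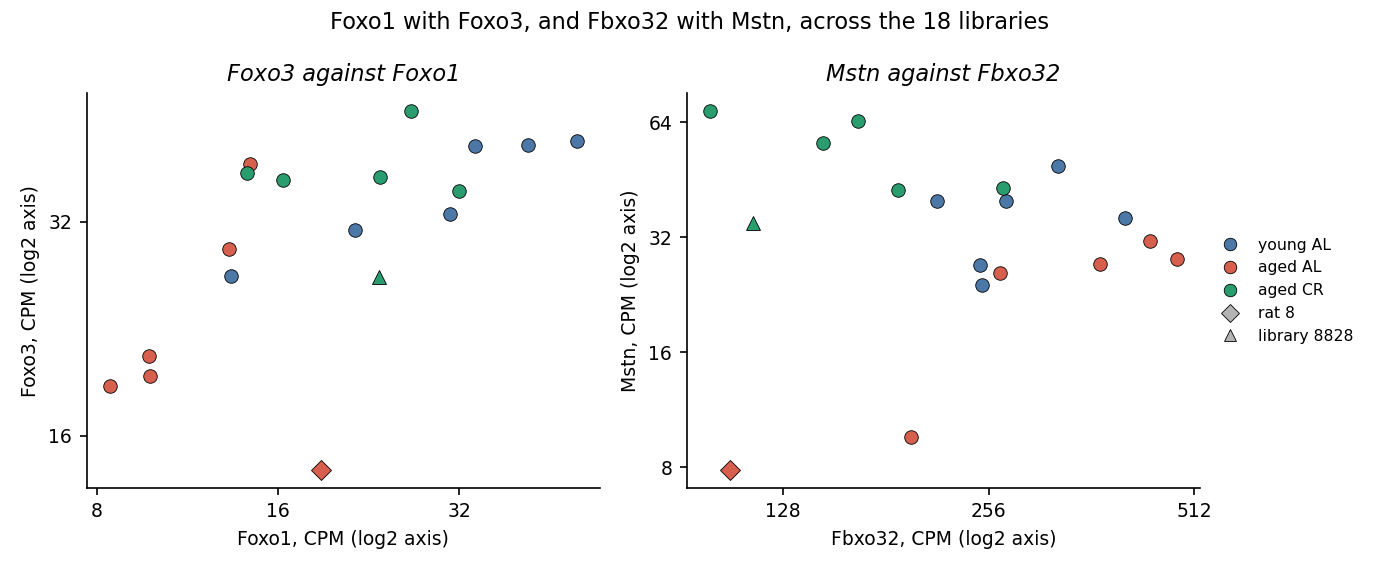
Level of Foxo3 against Foxo1 (left) and of Mstn against Fbxo32 (right) in each of the 18 libraries, in CPM on log2 axes, coloured by group. On these TMM-scaled values rat 8 is low for Foxo3 but not for Foxo1, and rats 7 and 8 lie at the bottom of the Mstn axis, at 9.61 and 7.87 CPM. That rat 8 is lowest of its group for Foxo3 depends on the scaling.

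Between the aged groups, each member kept the sign of its log2 fold change in all 29 alternatives at the same threshold. Those that left out a young rat kept every aged library. Mstn had its smallest value, 0.88, without rats 7 and 8 together (edgeR adjusted p = 0.0205), a choice made after their low Mstn had been seen.

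**Figure D5:**
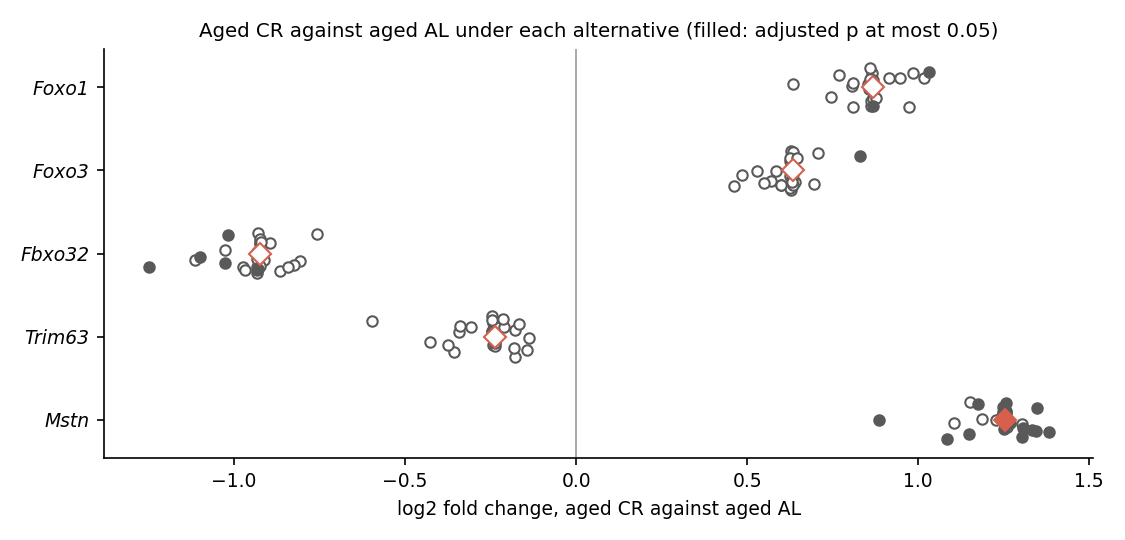
Log2 fold change of aged CR against aged AL rats (horizontal axis) under each alternative test, scaling, filter and set of libraries. Diamonds are the values given in the text, and filled symbols have an adjusted p of at most 0.05. No member changed direction, and Mstn ranged from 0.88 to 1.38.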

How the data were processed

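RNA of gastrocnemius was depleted of ribosomal RNA and made into strand-specific libraries. The authors trimmed the reads with cutadapt 1.2.1, aligned them with STAR 2.3.0e and counted them with featureCounts 1.6.4 on Ensembl release 96 of Rnor_6.0, with no strand option per the file header. The deposited values are raw counts per gene and library, without normalization, beside exon lengths.

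Groups came from the sample labels, and every sample column was used. In R 4.3.3 with edgeR 4.0.16, genes were kept by filterByExpr, libraries scaled by TMM, and all 18 libraries fitted in 1 quasi-likelihood model with Benjamini-Hochberg adjustment over 14646 genes. The limit for passing was an adjusted p of 0.05, and a call needed a fold change of at least 1.5 as well. CPM and RPKM were computed from the counts, and ratios with 0.5 added to each count. Ratios and correlations were tested by two-sided exact permutation, coded in Python with numpy 2.4.6. Spearman rho came from scipy 1.17.1. With 6 rats against 6 the smallest possible p is 0.00216. No 2 libraries of a group were alike within sampling noise.

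On simulated counts, 61% of genes changed 2-fold and 87% of those changed 4-fold were found in the comparison of aged AL with young AL over 14499 genes, and 66% and 89% between the aged groups over 14511 genes. The changed genes were drawn at random, and no outlying library was built in. The members vary more within groups than most genes, so these rates need not hold for them. Named genes are the 5 members and the gene most like each, with at most 4 identifiers that have no symbol printed, so the one for Foxo1 is given by its r alone. The members and lists were chosen with earlier results of these data known. The identifiers could not be paired with symbols, so a list of other FoxO, ligase and myostatin pathway genes and the tissue markers were not analysed here. Alternatives were DESeq2 1.42.0, fits on only the groups compared, other scalings, filters and thresholds, robust shrinkage, and leaving out libraries. Leaving out rats 7 and 8 together was added after the data were seen.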

Additional observations from a re-analysis of the deposited data

Results flagged for a closer look

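The Foxo1 to Foxo3 ratio of rat 8 stood apart from those of the other aged rats fed AL. Its log2 value was 0.57, against -0.81 in the nearest rat, a gap of 0.760 of the whole range of the group, above Dixon's 95% critical value for 6 samples. It was the only 1 of 21 groups of values to pass that limit, and chance gives about 1 in 20. In the same rat Foxo1 was the highest and Foxo3 the lowest of its group in TMM-scaled CPM, at 18.9 and 14.3 CPM. The rank of Foxo3 depends on the scaling. Rat 8 had 368 Foxo3 counts, more than the 333 of rat 10, whose library total was larger (18756669 against 17943903). The scaling of libraries does not enter a ratio of counts within 1 library.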

How the results depend on the processing

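Library totals in place of TMM moved the median log2 fold change of all genes by 0.17 between aged and young rats fed AL and by -0.17 between the aged groups. Foxo1 kept its direction and its call between aged and young rats fed AL in all 29 alternatives at the same threshold, and Mstn between the aged groups in 22 of 29. At an adjusted p of at most 0.01 neither passed (-1.36 and 1.25), which left 0 members in both comparisons, and Mstn did not pass in edgeR on only the aged groups (1.26, adjusted p = 0.0802, 0 members). Fbxo32 between the aged groups passed without rat 8 alone (-1.10), where 3 members passed. It also passed with DESeq2 on all libraries (-0.93) and with library totals (-1.03), so that 2 members passed. The same held without rat 8 and library 8828 (-1.02) and without rats 7 and 8 (-1.25). DESeq2 on only the aged groups also passed 2 members, with Foxo1 at 0.87. Fbxo32 between aged CR and young rats passed with DESeq2 on only those groups (-0.79) and without rats 7 and 8 (-0.79), giving 1 member. With 1 library left out, the members that passed numbered 1 to 2, 0 to 0 and 0 to 3 in aged AL against young AL, aged CR against young AL and aged CR against aged AL. Over the same fits, between the aged groups, Fbxo32 ranged from -1.11 to -0.76, Foxo1 from 0.75 to 1.03, Foxo3 from 0.53 to 0.83, Trim63 from -0.43 to -0.14 and Mstn from 1.09 to 1.38. Between aged and young rats fed AL, Foxo1 ranged from -1.52 to -1.18, Foxo3 from -0.80 to -0.49, Mstn from -0.86 to -0.56, Trim63 from 0.10 to 0.40 and Fbxo32 from -0.046 (without rat 9) to 0.30. Between aged CR and young rats, Foxo1 ranged from -0.65 to -0.32, Foxo3 from -0.048 to 0.11, Fbxo32 from -0.99 to -0.68, Mstn from 0.42 to 0.63 and Trim63 from -0.14 to 0.042. Trim63 there also turned to 0.024 with upper-quartile scaling and 0.026 without rat 8 and library 8828. The Foxo1 to Foxo3 ratio between aged and young rats fed AL was -0.89 (adjusted p = 0.0390, exact permutation) without rat 8 and library 8828, and ranged from -0.89 to -0.52 with 1 library left out. The Fbxo32 to Trim63 ratio was 0.23 by medians in that comparison, and with 1 library left out ranged from -0.15 to 0.15 there, from -0.92 to -0.61 in aged CR against young rats and from -0.88 to -0.66 between the aged groups. No relation between members passed with RLE scaling (0) or library totals (0). Calls over all genes in aged AL against young AL rats numbered 497, and 124 at 0.01, 983 and 859 with DESeq2 on all or only those groups, 258 in edgeR on only those groups, 330 with 10 counts in every library, 782 without rats 7 and 8, and 288 to 678 with 1 library left out. Between the aged groups they numbered 202, and 44, 444, 429 and 130 under the first 4 of these, 129 without a filter, 477 without rat 8 and library 8828, 430 without rats 7 and 8, and 69 to 385 with 1 left out. Between aged CR and young rats they numbered 290, and 107, 704, 955 and 441, then 455 and 678 without those pairs of libraries, and 185 to 578 with 1 left out. The cause of these changes was not tested. No paired analysis was possible because the groups share no rat numbers.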

Other observations

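The gene whose log2 CPM profile was most like that of a member, over the 18 libraries after group means were subtracted, was ENSRNOG00000018630 for Mstn (r = 0.961), at chr4:157676595-157679962 of Rnor_6.0. For Trim63 it was ENSRNOG00000047102 (r = 0.925), for Fbxo32 ENSRNOG00000008830 (r = 0.918) and for Foxo3 ENSRNOG00000006663 (r = 0.865). For Foxo1 the highest r was 0.864. These are the highest of 14646 genes and share the libraries with the members, so they are a description with no test. A gene model of 216 bases starting 287 bases after the end of Foxo3 had 42 to 165 counts per library, or 2.12 to 7.94 CPM.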
